A study of Mus musculus with 24 samples.

Results

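The promoters described here are regions of mouse liver chromatin that carried 2 active histone marks and TEAD in wild-type animals, that Myc occupied once its transgene was switched on, and that YAP occupied once Myc and YAP were switched on together. YAP is a transcriptional coactivator at the end of the Hippo pathway, which senses cell contact and tension. It cannot bind DNA itself and reaches chromatin through partner proteins, chiefly the TEAD transcription factors. Myc binds E-box DNA as a dimer with Max, mostly at promoters that are already open, and a promoter in use is usually marked by H3K4me3 and H3K27ac and loaded with RNA polymerase II (RNAPII). In the intact adult liver the Hippo pathway keeps YAP largely out of the nucleus of hepatocytes.

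Chromatin immunoprecipitation and sequencing (ChIP-seq) had been performed on livers of R26-rtTA mice of 4 genotypes: tet-Myc/YAP (both transgenes), tet-Myc (Myc transgene), tet-YAP (YAP transgene) and wild-type (no such transgene). All 4 groups carried R26-rtTA, the doxycycline-dependent activator expressed from the broadly active Rosa26 locus, so induction was not limited by it to hepatocytes, and doxycycline food was given for 2 days. The tet-YAP transgene is a Col1A1-YAP insertion encoding YAP S127A, a form that escapes inhibition by the Hippo kinases. Each combination of antibody and genotype was 1 library, so there is no replicate error, and the labels do not state whether animals were pooled or how old they were. Values below compare these libraries, and no p-value was computed.

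Of 18852 wild-type H3K4me3 regions, 4458 were selected on the presence or absence of peaks in the deposited lists. Leaving out the 1000 widest regions left 17852. Of these, 13631 overlapped a wild-type H3K27ac region by at least 1 bp, and 11460 of them overlapped no wild-type Myc peak. A wild-type TEAD peak was present in 8727, and a tet-Myc Myc peak in 7815. These 7815 are called TEAD-Myc promoters here, and "promoter" means only an H3K4me3 region. A tet-Myc/YAP YAP peak was found in 4458 of the 7815, or 57.0% (Wilson 95% interval 55.9 to 58.1), and these are called YAP-recruiting promoters. The 3357 that had none are the closest comparison, called TEAD-Myc promoters without YAP. The promoters were thus chosen by measured YAP, TEAD and Myc peaks and both marks, and values from those 6 lists are a description only. Among all 18852 regions, 76.9% overlapped wild-type H3K27ac, 66.6% wild-type TEAD, 70.7% tet-Myc Myc, 40.1% tet-Myc/YAP YAP and 13.3% wild-type Myc. Positions are in the mm9 build, no gene annotation or genome of that build was used here, and so neither genes nor sequences are given. For the same reason the liver label could not be checked against marker genes.

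The libraries differed in ways that bear on the values below. ChIP libraries of the narrow lists held 16.9 to 50.6 M tags. RNAPII was sequenced to 45.8, 50.6 and 37.7 M tags in tet-Myc/YAP, tet-Myc and tet-YAP, and to 20.9 M in wild-type. The tet-Myc/YAP YAP library of 17.4 M tags was set against a control of 167 M, while controls elsewhere were as deep as their ChIP library. Fragments were estimated at 51 bp for wild-type Myc and 56 bp for tet-YAP YAP, against 287 to 364 bp in the other 12 narrow lists, and the peaks of these 2 lists had median widths of 81.0 and 98.0 bp. Both the absence of Myc in wild-type, which the selection required, and the YAP sites of tet-YAP therefore rest on lists unlike the rest. The part of these differences in the results was not tested. The Myc lists held 30327, 32592, 13227 and 4775 peaks in tet-Myc/YAP, tet-Myc, tet-YAP and wild-type, and the YAP lists 11719 and 1328 in tet-Myc/YAP and tet-YAP. The Myc lists were longest in the livers with the Myc transgene, and the longer YAP list came from the liver that had the Myc transgene beside that of YAP.

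The YAP-recruiting promoters were broader and better marked in wild-type liver than TEAD-Myc promoters without YAP. Their H3K4me3 regions had a median width of 4204 bp (quartiles 2770 and 6030, range 640 to 10651), against 3315 bp in TEAD-Myc promoters without YAP, 4075 bp in active promoters that already had Myc in wild-type and 3358 bp over all regions. By the deposited score, the median region ranked at the 68.8 percentile of the H3K4me3 list, against 55.5 without YAP and 77.3 where Myc was already bound. They were scattered over the genome, with a median gap of 168026 bp between neighbours and only 101 of 4438 gaps under 5000 bp. Of the 11719 YAP peaks of tet-Myc/YAP, 5116 (43.7%) fell on these promoters. A single YAP peak was the usual number, found in 3871 promoters, while 524 had 2 and 63 had 3 or more. The YAP summit lay inside the H3K4me3 region in 4448 promoters (99.8%), and the YAP peak shared a median of 583 bp with it. Only 2 promoters shared under 100 bp, so few owed their place to a marginal overlap. On the other side of the boundary, 4 of the 3357 promoters without YAP had a YAP peak within 1000 bp. The limit on width was close, with the widest promoter kept at 10651 bp and the narrowest left out at 10653 bp.

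The promoters with the strongest YAP peaks come first. The highest −log10 q of a tet-Myc/YAP YAP peak was 89.3, at chr11:86920749-86925292, where the YAP peak spanned 86922453 to 86923384. Fold enrichment over the control, as MACS2 gives it for the strongest peak in a region, was 26.3 for YAP in tet-Myc/YAP and 57.0 for YAP in tet-YAP. TEAD enrichment there was 49.9, 59.3, 41.1 and 55.2 in tet-Myc/YAP, tet-Myc, tet-YAP and wild-type. TEAD was thus high in every genotype at this promoter, whereas Myc was modest. Myc enrichment was 7.17, 8.78 and 6.34 in tet-Myc/YAP, tet-Myc and tet-YAP, and RNAPII enrichment 15.7, 14.1, 9.99 and 5.50 in tet-Myc/YAP, tet-Myc, tet-YAP and wild-type. No wild-type H3K4me1 region, the mark of enhancers and promoter flanks, touched it.

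The next in order were chr17:71335295-71343635, chr16:13108780-13111347 and chr8:49072752-49077530. Wild-type TEAD enrichment was 60.9, 60.3 and 45.4 at these promoters, far above the median of 7.19 over all 4458. Each of the 4 also carried a YAP peak in tet-YAP. The promoter on chromosome 8 had no Myc peak in tet-YAP, although Myc enrichment reached 13.6 in tet-Myc/YAP and 8.23 in tet-Myc. Ranked instead by the YAP peak of tet-YAP, the first 4 were the same promoters of chromosomes 8 and 11, then chr13:104825754-104829481 and chr5:37220077-37222517. At the chromosome 13 promoter Myc enrichment was 28.8 in tet-Myc/YAP and 29.1 in tet-Myc, with RNAPII at 32.2, 19.0, 21.3 and 8.36 in tet-Myc/YAP, tet-Myc, tet-YAP and wild-type. At the chromosome 5 promoter TEAD stood out, at 71.6, 94.0, 56.7 and 38.9 in the same genotypes.

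The extremes of width looked different. The 4 widest promoters, at chr19:31941967-31952617, chr3:97431046-97441692, chr6:24606874-24617501 and chr4:44988965-44999590, had YAP enrichments of 7.10, 7.74, 7.69 and 6.21 in tet-Myc/YAP, near the median of 7.00, and no YAP peak in tet-YAP. All 4 were bound by Myc in tet-YAP, at 5.12 to 7.40. The narrowest promoter, chr3:127632916-127633555, had YAP in both lists, but no RNAPII in wild-type and no Myc in tet-YAP. Its YAP enrichment was 7.39 in tet-Myc/YAP. In tet-YAP the YAP peak was weak, with a −log10 q of 2.50. Its enrichment of 6.50 lay below the lower quartile of 12.0 for tet-YAP YAP at YAP-recruiting promoters. TEAD enrichment there was 57.9, 36.4, 25.7 and 25.2 in tet-Myc/YAP, tet-Myc, tet-YAP and wild-type. The next narrowest, chr4:8171770-8172464, had RNAPII at 6.38 and 7.34 in tet-Myc/YAP and tet-Myc and no RNAPII peak in tet-YAP or wild-type. The smallest YAP overlaps were 37 bp at chr1:93360277-93362207 and 64 bp at chr1:9619879-9621643, with YAP enrichments of 5.39 and 5.62. Just outside the selection, a YAP peak lay 2 bp from chr13:43618564-43621373 and 73 bp from chr12:25917803-25920829, and the regions at chr6:149040835-149051487 (10653 bp) and chr15:102069701-102080362 (10662 bp) had YAP but were among the 1000 widest.

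With Myc switched on as well as YAP, Myc and TEAD were present at nearly all of these promoters, and to a greater share than where YAP was missing. In tet-Myc/YAP, Myc was found at 98.7% of YAP-recruiting promoters (4399, interval 98.3 to 99.0), 93.4% of TEAD-Myc promoters without YAP and 72.2% of all regions. TEAD in tet-Myc/YAP was found at 99.1% of them (4417), 95.4% without YAP and 75.5% of all regions. The gap widened in the genotypes with fewer TEAD peaks. In tet-Myc TEAD was at 95.4% of YAP-recruiting promoters, 88.2% without YAP and 69.3% of all regions, and in tet-YAP at 92.9%, 79.1% and 62.0%. TEAD was called in all 4 genotypes at 4020 YAP-recruiting promoters (90.2%), at 2482 promoters without YAP (73.9%) and at 54.8% of all regions, although TEAD in wild-type was required of both classes. Active promoters that already had Myc in wild-type had similar shares, and 81.3% of them had YAP in tet-Myc/YAP. Myc was at 98.5% of them in tet-Myc/YAP, and TEAD at 98.3%, 94.0% and 93.8% in tet-Myc/YAP, tet-Myc and tet-YAP. The labels name the antibody only as TEAD, so which protein of the family was bound is not known.

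**Figure D1:**
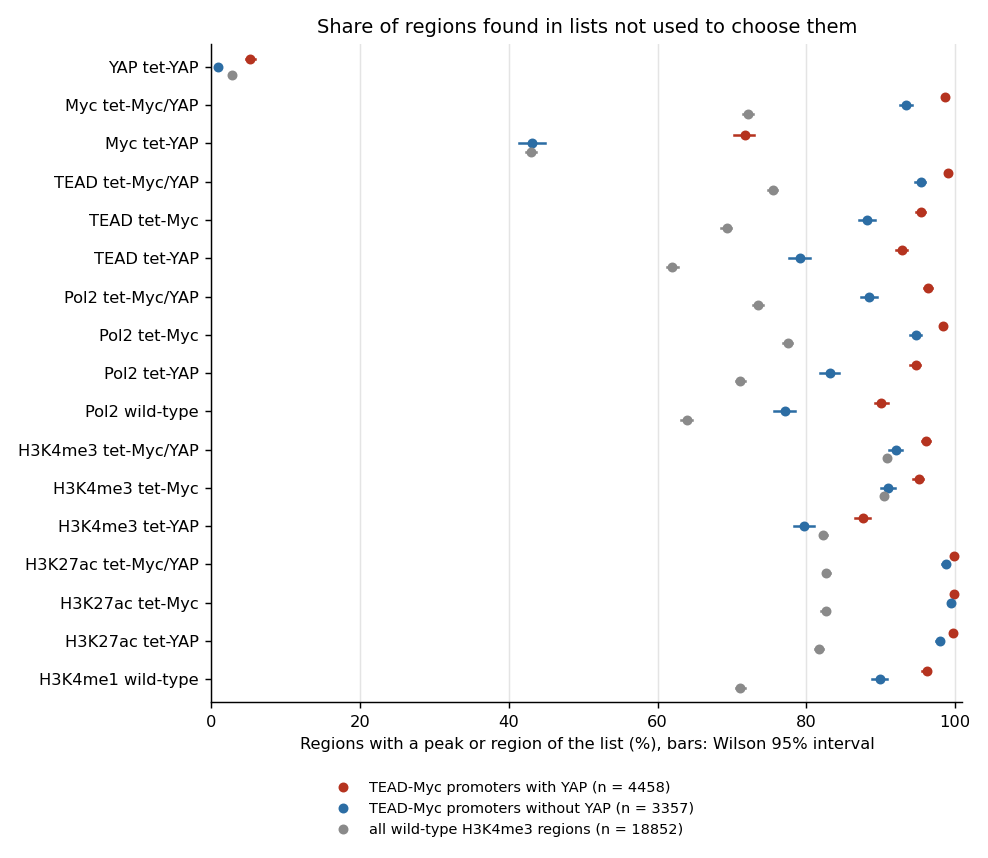
Each row is a peak or region list that did not enter the selection, and the horizontal axis gives the share of regions that overlap it by at least 1 bp, with Wilson 95% intervals as bars (counting error only). Red points are the 4458 YAP-recruiting promoters, blue points the 3357 TEAD-Myc promoters without YAP and grey points all 18852 wild-type H3K4me3 regions. Red lies to the right of blue in every row, by most percentage points for Myc in tet-YAP (71.7% against 43.1%). The H3K27ac rows are close to 100% for both.

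In percentage points, the widest gap between YAP-recruiting promoters and those without YAP concerned Myc in livers that lacked the Myc transgene. In tet-Myc/YAP the Myc shares of 98.7% and 93.4% left little room for a gap. Median tet-Myc Myc enrichment also differed, at 12.1 and 9.50, and the tet-YAP shares were not compared at equal Myc enrichment. In tet-YAP, 3195 of the 4458 YAP-recruiting promoters had a Myc peak, or 71.7% (70.3 to 73.0), against 43.1% (41.4 to 44.8) of TEAD-Myc promoters without YAP and 43.0% of all regions. The difference was 28.6 percentage points over all widths, and 26.7, 25.6 and 25.9 points in the narrowest, middle and widest regions. Among the narrowest regions (up to 2360 bp) the shares were 58.8% with YAP and 32.2% without, among the middle ones (up to 4238 bp) 71.3% and 45.6%, and among the widest 76.4% and 50.5%. Promoters that already had Myc in wild-type, which the selection set aside, had Myc in tet-YAP more often still, at 90.0% of 2171. Promoters with Myc but no TEAD had it at 35.2% of 1588. Across genotypes, 71.5% of YAP-recruiting promoters (3186) had Myc in tet-Myc/YAP, tet-Myc and tet-YAP, against 42.7% without YAP and 30.4% of all regions. Myc in tet-Myc/YAP and tet-Myc only was found at 27.2% (1213), 50.7% and 24.5%. Myc in tet-Myc and none in wild-type were required of both classes.

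Where Myc was bound in tet-YAP, it was also more enriched once its transgene was on. The 3195 promoters with Myc in tet-YAP had a median tet-Myc/YAP Myc enrichment of 19.7, against 12.0 in the 1263 without. TEAD did not follow this split, with medians of 12.4 and 13.6 in tet-Myc/YAP and 7.19 and 7.01 in wild-type. RNAPII did, being present in wild-type at 94.6% of the 3195 and 78.9% of the 1263. The tet-YAP YAP share was 5.26% and 5.15%, about the same on both sides of the split. The 3195 promoters were also wider, with a median of 4367 bp against 3677 bp, and the split was not compared at equal width.

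YAP itself was rarely called at these promoters when Myc was not induced. In tet-YAP a YAP peak was found at 233 of the 4458, or 5.23% (4.61 to 5.92), against 31 of 3357 (0.923%, 0.651 to 1.31) without YAP in tet-Myc/YAP and 2.72% of all regions. The share was 4.56% in promoters already bound by Myc in wild-type and 0.189% in promoters with Myc but no TEAD. Read from the other list, 233 of the 264 TEAD-Myc promoters with YAP in tet-YAP also had YAP in tet-Myc/YAP, or 88.3%, against 56.0% of the 7551 with none. The tet-YAP list is 1328 peaks long with the short fragment size given above, so a missing YAP peak in tet-YAP is not a measured absence, and the 2 YAP lists could not be set on 1 scale.

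The 233 promoters with YAP in both lists were set apart by TEAD rather than Myc. Their median TEAD enrichment was 31.5 in tet-Myc/YAP, against 12.4 in the other 4225, 23.3 against 9.34 in tet-Myc, 17.0 against 7.46 in tet-YAP and 13.3 against 7.01 in wild-type. All 233 had a TEAD peak in every genotype. Median Myc enrichment was 15.4 against 16.7 in tet-Myc/YAP, 11.2 against 12.2 in tet-Myc and 6.45 against 6.78 in tet-YAP, slightly lower each time. RNAPII was in wild-type at 86.3% of the 233 and 90.3% of the others, and YAP enrichment in tet-Myc/YAP was 8.42 against 6.80.

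**Figure D2:**
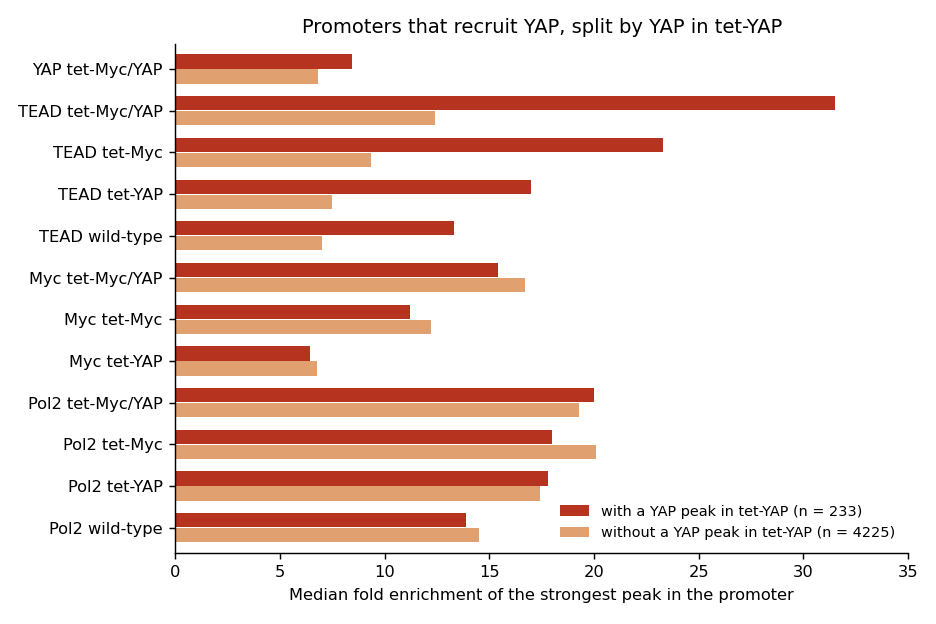
Bars give the median fold enrichment of the strongest peak in a promoter (horizontal axis, from 0) for each narrow list, in the 233 YAP-recruiting promoters with a YAP peak in tet-YAP (dark red) and the 4225 without one (orange). Enrichment is comparable within a row only. The TEAD rows separate, from 31.5 against 12.4 in tet-Myc/YAP to 13.3 against 7.01 in wild-type, while the Myc and RNAPII rows stay close.

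Within the selected lists, YAP was called more often where TEAD and Myc were both strongly enriched. This is a description, because all 3 lists chose the promoters. When the 7815 TEAD-Myc promoters were divided into quartiles of wild-type TEAD enrichment, the share with YAP was 42.2%, 51.5%, 60.5% and 74.7% in order of increasing TEAD. Over quartiles of tet-Myc Myc enrichment it was 41.0%, 54.7%, 62.3% and 71.0%. The share went up with either factor at each level of the other. In the lowest quartile of both, 28.6% of 625 promoters had YAP (25.2 to 32.3), and in the highest of both 84.8% of 528 (81.5 to 87.7). With the highest TEAD and the lowest Myc quartile the share was 60.4% of 445, and with the lowest TEAD and the highest Myc quartile 56.8% of 414. Region width and RNAPII moved with these quartiles too. Median width was 4366 bp and RNAPII in wild-type 93.4% in the highest quartile of both, against 3169 bp and 73.4% in the lowest of both, and their part in the gradient was not tested. By width alone the share with YAP was 42.1%, 56.8% and 65.3% in the narrowest, middle and widest regions.

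**Figure D3:**
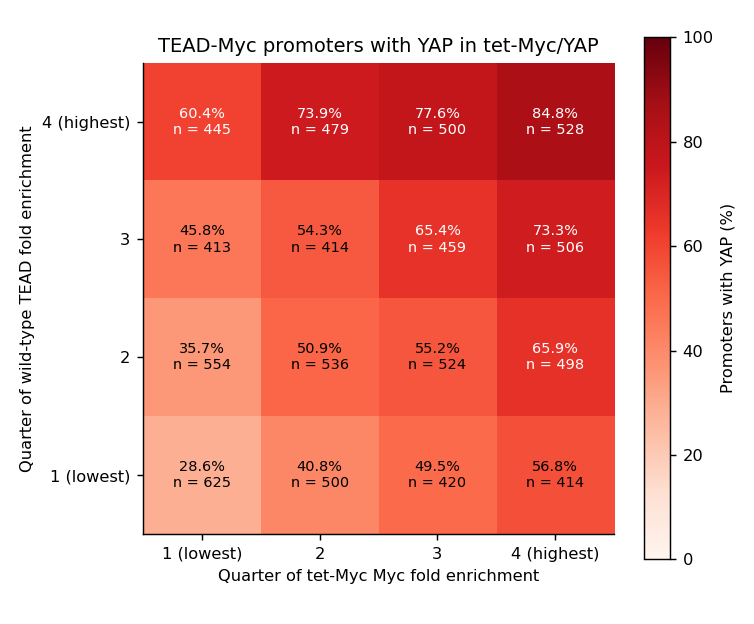
Each cell is a group of the 7815 TEAD-Myc promoters, by quartile of tet-Myc Myc fold enrichment (horizontal) and wild-type TEAD fold enrichment (vertical), and its colour and text give the percentage with a tet-Myc/YAP YAP peak. The share climbs along both axes, from 28.6% at the lower left to 84.8% at the upper right.

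Among the 4458, the strength of the YAP peak went with the same features more weakly. The promoters were split by the −log10 q of their YAP peak into 4 groups, with 1272 at values up to 7.70, 1083 and 990 in the next groups, the last of them up to 13.9, and 1113 above that. Myc in tet-YAP was present at 62.1%, 69.2%, 74.6% and 82.4% of them in that order. YAP in tet-YAP was present at 2.04%, 4.16%, 3.94% and 11.1%, and 123 of the 233 promoters with YAP in both lists were in the last group. Median wild-type TEAD enrichment was 6.50, 6.90, 7.33 and 8.16. Spearman's rho between YAP enrichment and the other enrichments over these promoters was 0.15 for TEAD (n = 4417) and 0.15 for Myc (n = 4399) of tet-Myc/YAP, and 0.23 for wild-type TEAD (n = 4458). The points share the YAP library and the chromatin of the region, and the values are given as a description only. For tet-Myc Myc it was 0.14 (n = 4458) and for region width 0.04.

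The height of TEAD and Myc peaks differed between the classes beyond the lists used to select them. Median Myc enrichment in tet-Myc/YAP was 16.6 at YAP-recruiting promoters (quartiles 12.0 and 24.5) and 12.5 at promoters without YAP (8.94 and 18.3), which placed the median peak at the 75.7 and 61.2 percentile of that list. In tet-YAP the Myc medians were 6.78 and 6.13. Median TEAD enrichment was 12.8 with YAP and 9.95 without in tet-Myc/YAP, 9.63 and 7.83 in tet-Myc, and 7.66 and 6.42 in tet-YAP. The quartiles of the classes overlapped in every list. In the wild-type list, which chose them, TEAD stood at 7.19 and 5.96. Several peaks in a region were also more common, with 2 or more TEAD peaks in tet-Myc/YAP at 48.2% of YAP-recruiting promoters and 36.8% of those without. Each enrichment is that of the strongest peak in a region, and YAP-recruiting promoters were the wider class. Neither the heights nor the numbers of peaks were compared at equal width. Tall peaks were not particular to YAP-recruiting promoters. Active promoters that already had Myc in wild-type had higher Myc medians, 24.1 in tet-Myc/YAP and 8.99 in tet-YAP. Their TEAD medians were similar, at 12.2 in tet-Myc/YAP, 9.18 in tet-Myc and 7.85 in tet-YAP, and higher in wild-type at 8.28.

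Inside the promoter the summits of the 3 factors lay close but did not coincide. Between the strongest summits, the median distance from YAP to Myc in tet-Myc/YAP was 175 bp (quartiles 66.0 and 462), from YAP to RNAPII 188 bp and from YAP to TEAD 223 bp. YAP lay within 100 bp of Myc at 35.3% of the promoters and of TEAD at 26.1%. At the 4361 promoters with both factors, the YAP summit was nearer to Myc at 2466 (56.5%) and nearer to TEAD at 1886 (43.2%). Only the strongest summit of each factor entered this count, and the nearest summits were not compared. In tet-Myc/YAP, 2 or more peaks were more common for TEAD (48.2% of the promoters) than for Myc (34.1%). TEAD and Myc were 290 bp apart in tet-Myc/YAP, against 241 bp at promoters without YAP. The wild-type TEAD and tet-Myc Myc summits were 229.5 bp apart, against 208 bp, in lists that entered the selection. YAP-recruiting promoters were the wider class, and these distances were not compared at equal width. Summits of 1 factor in different genotypes lay closer, with a median of 66.0 bp between Myc of tet-Myc/YAP and of tet-Myc, and 125 bp for TEAD between tet-Myc/YAP and wild-type. Distances grew with the region, and the TEAD to Myc distance was 134, 186 and 409 bp in the narrowest, middle and widest regions.

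The promoters with YAP also in tet-YAP had another arrangement. In tet-YAP the YAP summit lay a median of 69.0 bp from the TEAD summit and 61.8% lay within 100 bp, whereas the Myc summit of tet-YAP, present at 168 of the 233, was 351 bp away. In tet-Myc/YAP, too, YAP was nearer to TEAD at 137 of 231 such promoters (59.3%) and nearer to Myc at 92 (39.8%), against 1749 (42.3%) and 2374 (57.5%) of the 4130 other promoters. The YAP summits of the 2 genotypes were 196 bp apart at the median. The 233 promoters were wider, with a median of 4779 bp against 4187 bp in the other 4225. Only strongest summits were used here too, and the distances were not compared at equal width. YAP peaks were called at a fragment size of 56 bp in tet-YAP and 364 bp in tet-Myc/YAP. The part of this in the distances was not tested.

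**Figure D4:**
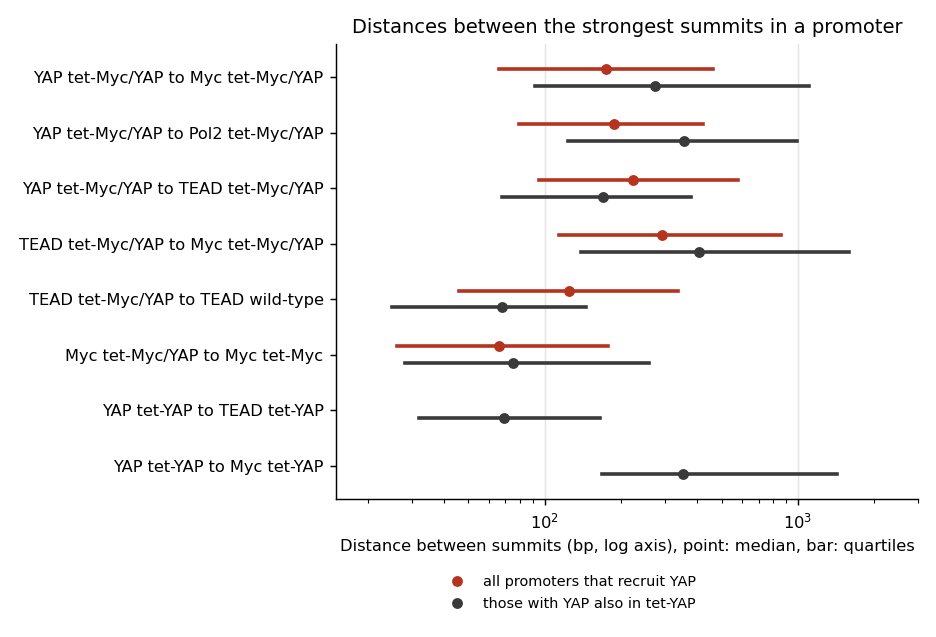
Points give the median distance in bp between the strongest summits of 2 lists in a promoter and bars its quartiles, on a log axis, for all YAP-recruiting promoters (red) and for those with YAP also in tet-YAP (dark grey). In red, the strongest YAP summit lies nearer to the strongest Myc summit (175 bp) than to that of TEAD (223 bp). In dark grey it lies nearer to that of TEAD (170 bp against 272 bp). The YAP to TEAD distance in tet-YAP, 69.0 bp, is among the shortest shown. YAP peaks were called at a fragment size of 56 bp in tet-YAP and 364 bp in tet-Myc/YAP.

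RNAPII was already on most of these promoters in wild-type liver. It was found at 4018 of 4458 (90.1%, 89.2 to 91.0), against 77.2% of TEAD-Myc promoters without YAP and 63.9% of all regions. The gap of 13.0 percentage points was smaller among wide regions. In the narrowest, middle and widest regions RNAPII was found in wild-type at 69.2%, 91.0% and 96.8% of YAP-recruiting promoters, against 56.2%, 82.8% and 90.5% of those without YAP. Cutting the lists of each antibody to equal length redrew both classes and left 184 YAP-recruiting promoters. The wild-type RNAPII list, the shortest at 39181 peaks, stayed whole. Between the redrawn classes the gap was 3.21 points in wild-type, and 0.672 and 0.278 points in tet-Myc/YAP and tet-Myc (7.96 and 3.73 with the full lists). With the full lists, the shares in the transgenic livers were 96.4%, 88.5% and 73.5% in tet-Myc/YAP, 98.4%, 94.7% and 77.5% in tet-Myc, and 94.7%, 83.2% and 71.1% in tet-YAP. These are in the order YAP-recruiting promoters, promoters without YAP and all regions. Median enrichment was 19.3 at YAP-recruiting promoters and 13.7 at those without YAP in tet-Myc/YAP, 19.9 and 14.2 in tet-Myc, 17.4 and 12.6 in tet-YAP, and 14.5 and 11.5 in wild-type. These medians were not compared at equal width. Active promoters that already had Myc in wild-type carried RNAPII more often than YAP-recruiting promoters. Shares there were 96.7% in wild-type and 98.3%, 98.9% and 97.6% in tet-Myc/YAP, tet-Myc and tet-YAP. Their median enrichment was higher too, at 17.8 in wild-type and 22.0, 22.9 and 19.9 in tet-Myc/YAP, tet-Myc and tet-YAP. RNAPII was called in all 4 genotypes at 88.2% of YAP-recruiting promoters (3930), 72.0% without YAP and 60.7% of all regions. It was called in all but wild-type at 4.96% (221), 7.86% and 6.37%, a share close to that of all regions, and in no genotype at 0.920% (41), 3.60% and 19.4%.

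RNAPII peaks covered more of the promoter in each transgenic liver than in wild-type, and the median gain at these promoters exceeded that at TEAD-Myc promoters without YAP but not that at promoters with Myc and no TEAD in tet-Myc/YAP and tet-Myc. Within 2 kb of the centre of the region RNAPII peaks covered a median of 1293 bp in tet-Myc/YAP, 1478 bp in tet-Myc, 1138 bp in tet-YAP and 943 bp in wild-type. The median gain per promoter over wild-type was 261 bp in tet-Myc/YAP, 441 bp in tet-Myc and 122 bp in tet-YAP, against 197, 409 and 34.0 bp at promoters without YAP and 90.0, 266 and 0 bp over all regions. At the 1588 promoters with Myc but no TEAD, of which 22.9% had YAP in tet-Myc/YAP, the gains were 271, 443 and 81.5 bp. Coverage was greater than in wild-type at 74.5% of YAP-recruiting promoters in tet-Myc/YAP (67.8% without YAP, 56.9% of all regions), 87.7% in tet-Myc (83.6% and 67.9%) and 66.7% in tet-YAP (54.5% and 48.8%). Ranked by this coverage, the 4 genotypes stand in the same order as by the tags of their RNAPII libraries, so depth and genotype cannot be told apart here.

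The 440 YAP-recruiting promoters without RNAPII in wild-type were narrow, with a median width of 2236 bp against 4374 bp in the 4018 others. RNAPII was called there in 73.6% in tet-Myc/YAP, 85.9% in tet-Myc and 58.4% in tet-YAP, with median enrichments of 6.52, 6.74 and 6.13 that were well below those of the others (20.4, 21.3 and 18.2). H3K4me3 was found in tet-YAP at 53.4% of them, against 91.4% of the others, and Myc in tet-YAP at 39.3% against 75.2%. TEAD was as frequent in the 440 as in the 4018, at 94.5% and 92.7% in tet-YAP, and no less enriched, at 14.6 and 12.6 in tet-Myc/YAP. H3K27ac in tet-Myc/YAP remained at 98.4% of them.

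H3K27ac and H3K4me3 were mostly kept across the genotypes. Both were required in wild-type, so their presence could only fall. Wild-type H3K27ac was found at 76.9% of all regions, so higher H3K27ac shares than over all regions follow in part from the selection. H3K27ac was found at 99.8% of YAP-recruiting promoters in tet-Myc/YAP (98.8% without YAP, 82.7% of all regions), 99.8% in tet-Myc (99.4% and 82.6%) and 99.7% in tet-YAP (98.0% and 81.7%). Wild-type H3K4me1 touched 96.2%, against 89.9% without YAP and 71.1% of all regions. H3K4me3 was found again at 96.1% in tet-Myc/YAP (92.0% and 90.9%), 95.1% in tet-Myc (91.0% and 90.5%) and 87.6% in tet-YAP (79.7% and 82.3%). It was called in all 4 genotypes at 86.6% of YAP-recruiting promoters (3862), 78.3% without YAP and 79.4% of all regions, and in all but tet-YAP at 7.25% (323), 10.3% and 8.84%. These shares lie near those of all regions. For H3K4me3 in tet-YAP the gap to promoters without YAP was 7.87 points over all widths and 2.88 and 3.04 points among the middle and widest regions.

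The H3K4me3 regions were narrower in tet-Myc/YAP and tet-Myc than in wild-type, here as elsewhere. Since the regions were drawn from the wild-type list, their wild-type coverage is high by construction, and all regions serve as the yardstick. Within 2 kb of the centre, tet-Myc/YAP H3K4me3 covered a median of 2896 bp, against 4001 bp (the whole window) in wild-type. The median difference was −308 bp for YAP-recruiting promoters, −390 bp without YAP and −368 bp for all regions in tet-Myc/YAP, −306, −342 and −321 bp in tet-Myc, and −82.0, −270 and −150 bp in tet-YAP. Coverage was greater than in wild-type at 10.5% of YAP-recruiting promoters in tet-Myc/YAP (12.9% of all regions), 10.1% in tet-Myc (13.7%) and 15.9% in tet-YAP (19.9%). A smaller share of these promoters than of all regions gained coverage, though a region that fills the window cannot gain. The cutoffs and depth of the broad lists are not known, and covered bases say nothing of the height of the mark.

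Few of these promoters lay on chromosome X. Of its 88 TEAD-Myc promoters, 18 had YAP, or 20.5% (13.3 to 30.0), against 57.5% (56.4 to 58.6) of 7726 on the autosomes, where the share ran from 52.3% on chromosome 18 to 61.3% on chromosome 8. Other lists were also low on X. Of its 505 H3K4me3 regions, 6.14% had tet-Myc/YAP YAP (41.0% on autosomes), 12.7% tet-YAP Myc (43.9%), 34.5% wild-type TEAD (67.5%), 50.7% tet-Myc Myc (71.2%) and 25.3% wild-type H3K4me1 (72.4%). RNAPII differed less, at 50.5% in wild-type against 64.3%, and H3K4me3 in tet-Myc/YAP was found again at 95.6% against 90.8%. Where Myc and TEAD were both called, their median enrichment on X was slightly lower, at 9.33 against 11.0 for tet-Myc Myc and 5.98 against 6.66 for wild-type TEAD. The labels do not state the sex of the animals, and the part of these lower levels in the low YAP share was not tested.

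**Figure D5:**
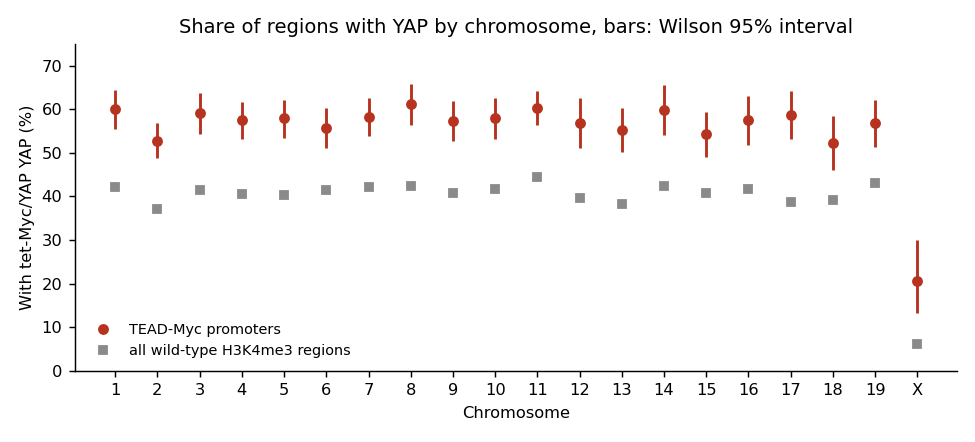
Red points give, for each chromosome, the percentage of TEAD-Myc promoters with a tet-Myc/YAP YAP peak, with Wilson 95% intervals, and grey squares the percentage of all wild-type H3K4me3 regions with one. The 19 autosomes lie between 52.3% and 61.3% in red, and X lies at 20.5%.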

How the data were processed

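Lists were at hand for 23 of 24 liver samples. The submitters' processing notes name mm9, BWA 0.6.2 (alignment), SAMtools and MACS2 2.0.9 (peaks). For each library the authors called a narrow list (14 in all, Myc, TEAD, YAP and RNAPII) at a p-value cutoff of 1.00e-05, read from the file headers. The deposited columns read are the summit position, the pileup signal, the fold enrichment (a ratio over the control) and −log10 q. The 9 broad histone lists were deposited with a score of unstated scale, used only for ranks. Chromatin for YAP was fixed with DSG before formaldehyde.

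The promoters, classes and comparisons were chosen with earlier results of these data known. Overlaps of at least 1 bp, coverage within 2 kb and summit distances came from Python 3.11.15 code (numpy 2.4.6, pandas 2.3.3, matplotlib 3.10.9), which passed 5 of 5 checks on simulated data of 2000 regions. With bedtools 2.31.1 the selection gave the same 4458 promoters. Wilson 95% intervals (scipy 1.17.1) cover counting only, since each group has 1 library. Promoters named singly were the 4 with the highest −log10 q of YAP in each YAP list, the 4 widest, the 2 narrowest, the 2 with the smallest YAP overlap, and the nearest regions outside the selection. Alternatives were a −log10 q of at least 10, summits inside the region, 200 bp of overlap, the 1000 widest kept, the wild-type Myc step left out, lists cut to equal length, 3 classes of width and, added after the data were seen, autosomes only.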

Additional observations from a re-analysis of the deposited data

How the results depend on the processing

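No paired analysis was possible because each group had 1 library. The difference between YAP-recruiting promoters and TEAD-Myc promoters without YAP kept its sign in 120 of 120 values (12 differences under 10 alternatives), and no value reversed, but some differences became small. These values are not separate checks. Several alternatives kept nearly the same promoters, 4428 with summits inside the region and 4442 with 200 bp of overlap, and the classes of width divide the same promoters. Cutting lists to equal length also redrew both classes, and the wild-type RNAPII list, already the shortest, stayed whole. The RNAPII difference was then 0.672 points for tet-Myc/YAP (7.96 as reported), 0.278 for tet-Myc (3.73), 4.30 for tet-YAP (11.5) and 3.21 for wild-type (13.0). With the full lists it was 2.68, 1.44, 4.69 and 6.27 points among the widest regions, in that order. The number of promoters stayed within 1.5 times of 4458 under the alternatives tried, except that cutting each antibody's lists to its shortest left 184, with the YAP list at 1328 peaks and the Myc list at 4775. With those 184, the shares were 17.4% for tet-YAP YAP, 83.2% for tet-YAP Myc, 84.8% for tet-Myc/YAP Myc, 98.4% for tet-YAP TEAD and 95.1% for wild-type RNAPII, the H3K4me3 coverage difference was −198 bp, the TEAD to Myc distance 162 bp and the median percentile of the wild-type RNAPII peak 88.3. With −log10 q of at least 10 in every narrow list, they were 1.72%, 68.1%, 99.1%, 88.7% and 90.7% in the same order, then −338 bp, 201 bp and 79.7. Without the wild-type Myc step, tet-YAP Myc was 77.8%, tet-YAP TEAD 94.0%, wild-type RNAPII 92.3% and its percentile 86.0. With the 1000 widest kept, the distance was 251 bp and the percentile 85.3. In the narrowest, middle and widest class of width, tet-YAP YAP was 4.46%, 4.42% and 6.04%, tet-YAP Myc 58.8%, 71.3% and 76.4%, tet-Myc/YAP Myc 96.2%, 99.1% and 99.2%, tet-YAP TEAD 93.1%, 90.6% and 94.4%, and wild-type RNAPII 69.2%, 91.0% and 96.8%. The coverage difference was −139, −516 and −176 bp there, the distance 134, 186 and 409 bp, and the percentile 66.7, 82.6 and 87.7. The cause of these shifts was not tested. Shares in further lists also moved, among them H3K4me3 in tet-YAP (87.6%, and 65.8% in the narrowest regions), RNAPII in tet-Myc/YAP (96.4%, and 87.0%) and TEAD in tet-Myc (95.4%, and 91.9% at −log10 q of at least 10). Each value rests on 1 library.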
